A study of Homo sapiens with 4 samples.

Results

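Platelet granule proteins are the cargo and membrane receptors that platelets release or expose on activation, and their genes are switched on as megakaryocytes mature. The genes followed here encode the chemokines PF4, PF4V1 and PPBP, the adhesive proteins VWF, THBS1 and MMRN1, the coagulation factors F5 and F13A1, the extracellular chaperone CLU and the granule membrane receptor SELP. All probes on the array whose gene name is one of these 10 were kept, each on its own, which gave 10 of the 30499 gene names and 13 of the 41000 probes on the array: VWF, THBS1 and F5 had more than 1 probe, and the other genes had 1.

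The cells were Meg-01, a human megakaryoblastic leukaemia line. GATA1 5-13 and GATA1 4-14 are clones that carry a stable shRNA against GATA1, each grown from 1 soft agar colony after puromycin selection and chosen for reduced GATA1. GATA1 Neg, the control, was not cloned: it was kept as a mixed population after infection with a non-targeting shRNA, so every group carries a viral vector. RNA of each clone was hybridized against GATA1 Neg RNA on 2 two-colour Agilent arrays with the dyes exchanged, 4 arrays on 1 slide. The labels' extraction text names CMK cells, another megakaryocytic line, while the sample labels name Meg-01.

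Alpha granules are made in megakaryocytes, which load them with proteins of their own synthesis and with proteins taken up from plasma. On activation the granules fuse with the platelet surface, releasing chemokines, adhesive proteins and clotting factors, and P-selectin moves to the outer membrane. The transcription factor GATA1 recognizes GATA sequences through its zinc fingers and is needed for megakaryocyte maturation, and PF4, PPBP and VWF are commonly used as markers of that maturation.

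A value here is the log2 ratio of clone over GATA1 Neg, so a positive value means a higher level in the clone, and errors are SDs over the clone means (n = 2 clones). Each clone mean comes from 2 arrays, and nothing says that these came from separate cultures. GATA1 Neg was on every array, so its own spread between cultures was not measured. GATA1 itself had log2 ratios of -0.21 and -0.34 in GATA1 5-13 and of -0.43 and -0.58 in GATA1 4-14, which leaves 82.7% and 70.6% of the control level, with a mean of -0.39 ± 0.16 (SD, n = 2 clones) and an adjusted p of 0.61 from limma. On each array, 61.6 to 66.4% of spots were well above background in the clone RNA and 61.9 to 65.8% in the GATA1 Neg RNA. Of the megakaryocyte marker genes, 7 of 10 on the array, such as GP9 and ITGA2B, were well above background in GATA1 Neg on all 4 arrays, and PF4, PPBP and VWF were not. The summed intensity of all megakaryocyte marker probes was 58500 to 61810 in GATA1 Neg, 51570 to 52870 in GATA1 5-13 and 52790 to 54410 in GATA1 4-14, a difference that was not tested.

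Only 3 of the 13 granule protein probes were well above background in both RNAs on all 4 arrays, against 58.1% of all 40974 probes with a value on every array. These were the probes of MMRN1 and CLU and 1 of the THBS1 probes. MMRN1 was higher in both clones, CLU was lower in both, and THBS1 was slightly higher in both. F13A1 was above background in GATA1 4-14 alone, where it was at least 2.18-fold above GATA1 Neg. The remaining probes, which include all those of PF4, PF4V1, PPBP, VWF, SELP and F5, were at or close to background in all 3 RNAs, and 8 of the 13 probes were above background in neither RNA on any array, against 31.1% of all probes. No granule protein probe passed an adjusted p of 0.05 (limma with Benjamini-Hochberg adjustment), and 0% of all probes did, while at an unadjusted p under 0.05 it was 2 of the 13 and 7.42% of all. A dim probe bounds what these arrays can show and does not show that the RNA is absent. In RNA of whole cultures, fewer cells that express a gene and less RNA per cell cannot be told apart.

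**Figure D1:**
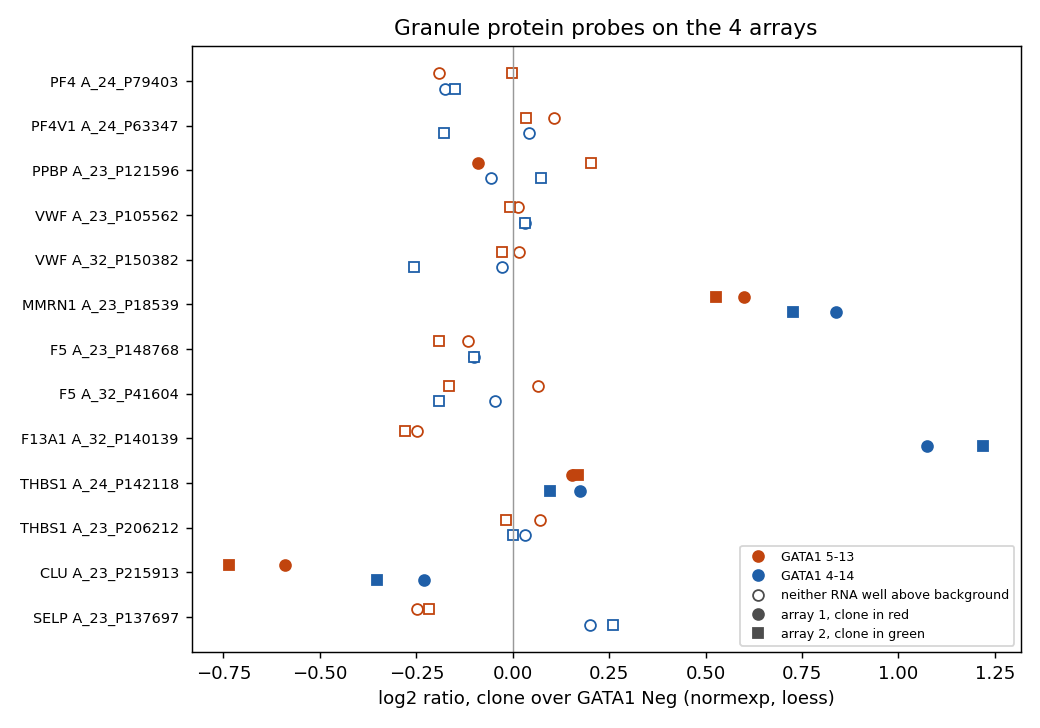
Log2 ratio of clone over GATA1 Neg (horizontal axis) for each of the 13 probes, 1 point per array. Circles are arrays with the clone in red, squares are arrays with the clone in green, and open symbols mark arrays on which neither RNA was well above background. MMRN1 lies between 0.53 and 0.84 on all 4 arrays and CLU between -0.74 and -0.23, while F13A1 is positive in GATA1 4-14 only and most open symbols lie near 0.

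MMRN1, multimerin 1, is a large alpha granule protein that binds and stores factor V. Its probe lies on the plus strand at chr4:91093208-91093267 of hg18. The log2 ratios were 0.60 and 0.53 in GATA1 5-13 and 0.84 and 0.73 in GATA1 4-14, which is 1.48-fold and 1.72-fold above GATA1 Neg. The normalized log2 intensity was 9.10 to 9.21 in GATA1 Neg, 9.74 on both arrays in GATA1 5-13 and 9.88 to 9.93 in GATA1 4-14. A ratio above 0 on all 4 arrays was found for 15.9% of all probes well above background in both RNAs on all arrays. The mean log2 ratio was 0.67 ± 0.16 (SD, n = 2 clones), with an adjusted p of 0.52 and an unadjusted p of 0.0035 from limma. MMRN1 was the 1 granule protein probe at an unadjusted p of at most 0.005, a limit it did not reach without background correction, with Feature Extraction's ratios or with the series-wide values. The limit was met by 0.901% of all probes, and by 0.327% with a higher level in the clones. Among the 23803 probes well above background in both RNAs on every array, 0.781% had a mean ratio at least as high. Its call at an adjusted p of 0.05 depended on the error used. Against 0.52 in the main limma fit, the adjusted p was 0.0086 from limma with the 4 arrays as 4 values and no replicate block, and 0.054 with the block. It was 1.1e-10 when each array's own error was used as weight. The highest adjusted p, from limma without background correction, was 0.57. The ratio stayed between 0.49 and 0.78 in all 16 alternatives, some of which cannot change it.

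MMRN1 is also made by endothelial cells. Of the 6 endothelial markers on the array, CDH5, CLDN5 and EMCN stayed dim in GATA1 Neg throughout. The summed intensity of all endothelial marker probes was 9600 to 9877 in GATA1 Neg, 4927 to 4969 in GATA1 5-13 and 5823 to 5852 in GATA1 4-14. The cultures were of a megakaryocytic cell line, so these are values of its own cells, and their relation to the MMRN1 value was not tested. Both probes of ESAM, a cell adhesion molecule of endothelium and platelets, had clone means between -1.01 and -0.83, with adjusted p of 0.38 and 0.40 from limma. The TIE1 probe had clone means of -1.68 in GATA1 5-13 and -0.19 in GATA1 4-14, with an adjusted p of 0.71 from limma. Of the 9 endothelial marker probes, only 3, those of ESAM and TIE1, were well above background in both RNAs on all arrays.

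RefSeq lists 2 start sites for MMRN1. The bases just before each are shown because MMRN1 had the most extreme ratio of the probes measured in both clones, and because the perturbed protein binds GATA sequences. The sequences are the 250 bases before each start in the gene's direction, at chr4:89879261-89879510 and chr4:89894604-89894853 of GRCh38.p14, plus strand, with capitals marking GATA words on either strand, which are AGATAA and its variant AGATAG, and TGATAA and its variant TGATAG.
MMRN1 upstream start: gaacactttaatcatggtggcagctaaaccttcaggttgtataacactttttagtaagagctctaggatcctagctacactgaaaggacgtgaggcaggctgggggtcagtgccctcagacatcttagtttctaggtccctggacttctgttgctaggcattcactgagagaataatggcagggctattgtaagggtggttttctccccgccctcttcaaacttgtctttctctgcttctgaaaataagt
MMRN1 downstream start: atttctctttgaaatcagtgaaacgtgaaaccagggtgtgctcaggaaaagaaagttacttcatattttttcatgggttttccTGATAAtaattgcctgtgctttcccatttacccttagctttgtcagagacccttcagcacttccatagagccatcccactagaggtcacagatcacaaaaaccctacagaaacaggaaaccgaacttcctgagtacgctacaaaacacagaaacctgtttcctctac
The window of the downstream start holds 1 such word, which begins 167 bases before the start, and that of the upstream start holds none. The words occur in 22.3% of the 35116 windows of this length in the table and in 3 of the 8 windows found for 7 of the 10 genes. PF4, VWF and CLU had no entry. A match describes the letters and no binding was measured here.

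Over the 4 arrays, the probes whose log2 ratios lay nearest to those of MMRN1, by Euclidean distance among 40973 other probes, belonged to NCAM1, C3AR1 and P2RY14. The distances were 0.11 for NCAM1, a neural cell adhesion molecule, 0.12 for C3AR1, the receptor of complement C3a, and 0.17 for P2RY14, a receptor of UDP-sugars. C3AR1 was well above background in both RNAs on every array, at 0.65, 0.61, 0.78 and 0.76, while NCAM1 and P2RY14 were not.

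THBS1, thrombospondin 1, is an adhesive glycoprotein of alpha granules and of many other cells. The brighter of its probes, A_24_P142118 on the plus strand at chr15:37676123-37676182 (hg18), had log2 ratios of 0.16 and 0.17 in GATA1 5-13 and 0.17 and 0.10 in GATA1 4-14. The normalized log2 intensity was 8.17 to 8.24 in GATA1 Neg, 8.36 to 8.39 in GATA1 5-13 and 8.32 to 8.35 in GATA1 4-14. The difference was small, at 1.12-fold and 1.10-fold, and the mean of 0.15 ± 0.02 (SD, n = 2 clones) had an adjusted p of 0.68 from limma, with 10.4% of all probes higher. The other THBS1 probe, A_23_P206212 at chr15:37675202-37675261, lies 861 bases away and was printed as 10 spots. In each RNA, only 1 of its 40 spots was well above background, and its array values were 0.07, -0.02, 0.03 and 0.00. The pair of THBS1 probes therefore differed in whether they were measured, and the slightly higher THBS1 level rests on 1 probe.

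VWF, the multimeric glycoprotein that tethers platelets to injured vessel wall, was not well above background with either probe. The probe A_23_P105562 at chr12:5928444-5928503 (hg18, minus strand) was also printed as 10 spots, of which 3 of 40 were well above background in the clone RNA and 2 of 40 in GATA1 Neg. Its array values were 0.01, -0.01, 0.03 and 0.03, and single spots ranged from -0.16 to 0.27. The second probe, A_32_P150382, lies 175.4 kb away at chr12:6103938-6103997, with values of 0.02 and -0.03 in GATA1 5-13 and -0.03 and -0.26 in GATA1 4-14. The last of these is from 1 array, and its partner with the dyes exchanged was near 0.

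**Figure D2:**
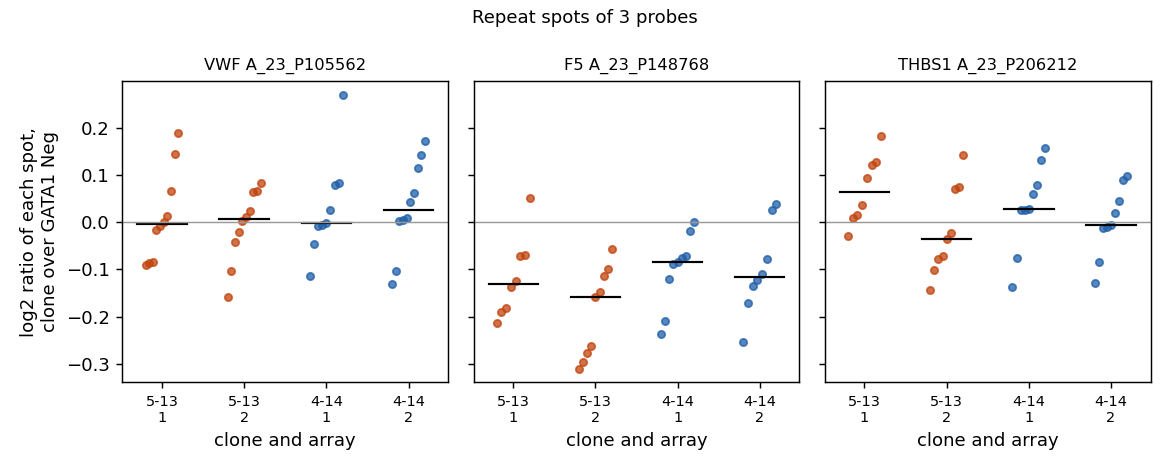
Log2 ratio of clone over GATA1 Neg (vertical axis) for each spot of the probes of VWF, F5 and THBS1 that were printed 10 times, by clone and array, with outlier spots left out and black lines at the medians. The spots of VWF and THBS1 lie on both sides of 0 on every array, between -0.16 and 0.27, and those of F5 lie mostly below 0, between -0.31 and 0.05.

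The platelet chemokines PF4, PF4V1 and PPBP lie together on chromosome 4. PF4, platelet factor 4, binds heparin, PF4V1 is a close variant of it, and PPBP is the precursor of beta-thromboglobulin and NAP-2. On hg18 the probes are at chr4:75065779-75065838 for PF4 (minus strand), chr4:74939001-74939060 for PF4V1 (plus strand) and chr4:75072163-75072222 for PPBP (minus strand), the last 6.32 kb from PF4. PF4 and PF4V1 are nearly identical, so a probe of one may also bind RNA of the other.

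The PF4 probe had log2 ratios of -0.19 and 0.00 in GATA1 5-13 and -0.18 and -0.15 in GATA1 4-14, with a mean of -0.13 ± 0.05 (SD, n = 2 clones) and an adjusted p of 0.70 from limma. Its raw signal exceeded the local background by 5.71 to 11.7% over the arrays and RNAs, and on no array was it well above background. For PF4V1 the excess was -0.239 to 1.71%, and its ratios were 0.11, 0.04, 0.04 and -0.18, with the only negative value on the second array of GATA1 4-14. No order of the RNAs can be read from values at this level.

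PPBP was well above background on 1 array, the first of GATA1 5-13, where it was above in both RNAs. Its log2 ratios were -0.09 and 0.20 in GATA1 5-13 and -0.06 and 0.07 in GATA1 4-14. The sign followed the dye, being negative with the clone in red and positive with the clone in green for both clones, and the mean was 0.03 ± 0.03 (SD, n = 2 clones). Of the PPBP and SELP windows, which each hold a GATA word, that of PPBP is shown as a classical marker of the lineage, on the minus strand at chr4:73988191-73988440 of GRCh38.p14, with the same use of capitals.
PPBP: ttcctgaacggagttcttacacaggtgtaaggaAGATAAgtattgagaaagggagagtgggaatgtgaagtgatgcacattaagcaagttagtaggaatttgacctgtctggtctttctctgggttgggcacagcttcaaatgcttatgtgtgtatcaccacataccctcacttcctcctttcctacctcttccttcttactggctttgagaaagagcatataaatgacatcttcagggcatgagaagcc
The word begins 217 bases before the start. The mean ratio of PPBP had an adjusted p of 0.91 from limma.

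F13A1 encodes the A subunit of coagulation factor XIII, the transglutaminase that crosslinks fibrin, which platelets and monocytes carry mainly in the cytoplasm. Its probe is at chr6:6089424-6089483 (hg18, minus strand). The log2 ratios were -0.25 and -0.28 in GATA1 5-13 and 1.08 and 1.22 in GATA1 4-14. The normalized log2 intensity was 6.60 to 6.82 in GATA1 Neg and 6.39 to 6.46 in GATA1 5-13, where the probe was not well above background, and 7.82 to 7.90 in GATA1 4-14, where it was on both arrays. GATA1 4-14 was thus at least 2.18-fold higher than GATA1 Neg, taking for the control the higher, per array, of its own signal and of the lowest signal among probes well above background. The levels were set per channel and may carry dye bias within an array, and each clone had both dye orientations.

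The values in GATA1 5-13 come from signals at background, so the size of the difference between the clones was not measured for F13A1, and with 1 replicate per clone it has no test. The mean over the clones, 0.44 ± 1.00 (SD, n = 2 clones), includes those values and had an adjusted p of 0.82 from limma. It ran from 0.18 without background correction to 0.78 with Feature Extraction's ratios and 1.96 with error weights, and was -0.26 without GATA1 4-14. Of the monocyte and macrophage markers, 1 of 5 on the array, LYZ, was above background in GATA1 Neg on all 4 arrays, and CD163, CSF1R and FCGR3A were above on none. LYZ was at 0.43 and 0.27 on the arrays of GATA1 4-14, and was at least 1.51-fold lower than GATA1 Neg in GATA1 5-13, where it was not well above background. CD14, above background on some arrays only, did not share this pattern, with clone means of -0.01 in GATA1 5-13 and -0.003 in GATA1 4-14. The summed intensity of the monocyte and macrophage markers was 516 to 566 in GATA1 Neg, 498 to 533 in GATA1 5-13 and 559 to 578 in GATA1 4-14, with ranges of GATA1 4-14 and GATA1 Neg that overlap. Of 7 fibroblast markers, LUM and PDGFRA were above background in GATA1 Neg on all 4 arrays and the other 5 on none. LUM, a matrix proteoglycan, was at 1.83 and 1.91 on the arrays of GATA1 4-14. It was at least 1.32-fold lower than GATA1 Neg in GATA1 5-13, where it was not well above background. The PDGFRA probe above background was instead higher in both clones, with means of 0.155 in GATA1 5-13 and 0.357 in GATA1 4-14. The summed intensity of the fibroblast markers was 1038 to 1079 in GATA1 Neg, 1027 to 1035 in GATA1 5-13 and 1434 to 1479 in GATA1 4-14. All cultures were of a megakaryocytic cell line, so these markers are values of its own cells, and their relation to the F13A1 value was not tested. The F13A1 window, shown because this gene had the highest ratio in a clone, lies on the minus strand at chr6:6320663-6320912 of GRCh38.p14 and holds none of the GATA words.
F13A1: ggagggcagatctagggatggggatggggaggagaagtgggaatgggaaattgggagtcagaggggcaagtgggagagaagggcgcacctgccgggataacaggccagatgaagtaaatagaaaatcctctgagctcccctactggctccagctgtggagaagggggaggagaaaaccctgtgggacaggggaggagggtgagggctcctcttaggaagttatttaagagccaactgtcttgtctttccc

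F5, coagulation factor V, is the cofactor of factor Xa and is stored in alpha granules bound to multimerin 1. Its probes were above background on no array. The probe A_23_P148768 at chr1:167750189-167750248 (hg18, minus strand), printed as 10 spots, had ratios of -0.12 and -0.19 in GATA1 5-13 and of -0.10 on both arrays of GATA1 4-14. The mean was -0.13 ± 0.04 (SD, n = 2 clones), with an adjusted p of 0.70 from limma, and 1 of 40 spots was well above background in each RNA. The second probe, A_32_P41604 at chr1:167747867-167747926, gave 0.07 and -0.17 in GATA1 5-13 and -0.05 and -0.19 in GATA1 4-14, with a raw signal -1.27 to 2.04% above local background. F5 was thus not measured well above background, while MMRN1, its binding partner in the granule, was on all arrays.

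SELP, P-selectin, is the leukocyte receptor of the alpha granule membrane and of endothelial Weibel-Palade bodies. Its probe at chr1:167824959-167825018 (hg18, minus strand) lies 74.7 kb from that of F5. The log2 ratios were -0.25 and -0.22 in GATA1 5-13 and 0.20 and 0.26 in GATA1 4-14, and these are ratios of signals at background. The signal was 4.74 to 18.8% over local background and well above it on no array, so no fold is given, and the mean was 0.00 ± 0.33 (SD, n = 2 clones). The sign of this mean changed between alternatives. The SELP window also holds 1 GATA word, which begins 108 bases before the start.

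CLU, clusterin, is a secreted chaperone that is stored in alpha granules and made by many tissues. Its probe is on the minus strand of chromosome 8. The log2 ratios were -0.59 and -0.74 in GATA1 5-13 and -0.23 and -0.35 in GATA1 4-14, which is 0.632-fold and 0.817-fold of GATA1 Neg. The normalized log2 intensity was 8.58 to 8.76 in GATA1 Neg, 8.01 to 8.02 in GATA1 5-13 and 8.35 to 8.39 in GATA1 4-14. A ratio below 0 on all 4 arrays was found for 16.8% of all probes well above background in both RNAs on all arrays. The mean was -0.48 ± 0.26 (SD, n = 2 clones), with an adjusted p of 0.63 and an unadjusted p of 0.027 from limma. Among probes well above background in both RNAs on every array, 2.14% had a mean ratio as low or lower. The clones differed by -0.37 in CLU, more than the 0.14 and 0.12 between the arrays of a clone. A difference between clones larger than the array spans was found for 5 of the 13 probes, of which MMRN1 and CLU were measured in both clones, and for 41.3% of all probes.

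**Figure D3:**
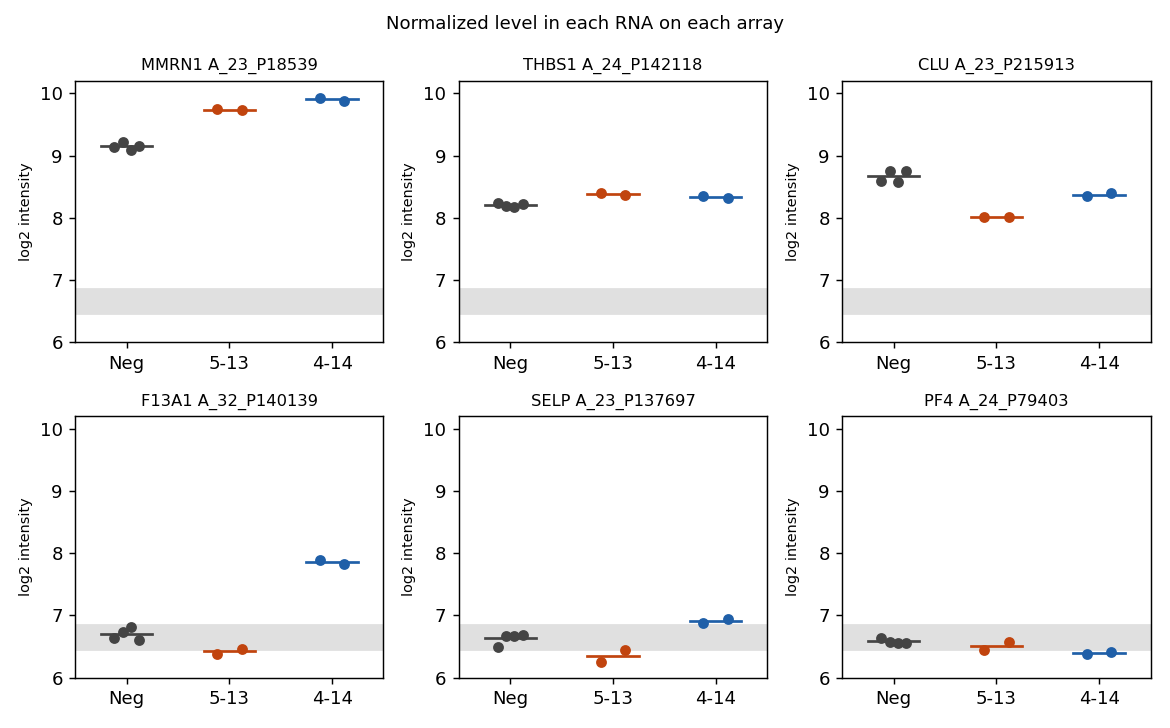
Normalized log2 intensity (vertical axis, loess and Aquantile) in GATA1 Neg (4 arrays), GATA1 5-13 and GATA1 4-14 (2 arrays each) for 6 probes, with points for arrays and lines for means. Levels of different probes are not comparable, and the grey band spans the lowest signals among probes well above background on the arrays. MMRN1 and THBS1 are higher and CLU is lower in both clones than in GATA1 Neg, F13A1 lies above the band in GATA1 4-14 only, and SELP and PF4 lie in or beside the band.

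Since 8 of the 13 probes were above background in neither RNA, the medians and sign counts over all 13 are set mostly by probes without a measured ratio. For GATA1 5-13 the median of their log2 ratios was -0.005 and for GATA1 4-14 it was 0.009, beside -0.002 and 0 for all probes, and 10 of the 13 had the same sign in both clones, against 56.5% of all probes. On all 4 arrays the sign was the same for 5 of the 13 probes and for 26.2% of all probes. Of the probes measured in both clones, MMRN1 had the highest mean log2 ratio, then the brighter THBS1 probe, then CLU, and no order is given for the others. Where the errors of single arrays were used as weights, 3 granule protein probes had an adjusted p under 0.05, as did 8.62% of all probes. MMRN1 and F13A1 (at 1.96) were higher, beside 4.2% of all probes, and CLU was lower, beside 4.42%. That error does not include the spread between clones.

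Among other proteins that alpha granules carry, 26 of 47 genes had a probe well above background in both RNAs on all arrays. Of the 36 such probes, 15 were lower and 3 were higher in both clones on all arrays, against 16.8% and 15.9% of all probes measured as well, and the median was -0.16 in GATA1 5-13 and -0.07 in GATA1 4-14, beside -0.009 and 0. None passed an adjusted p of 0.05. The chemokine CXCL8, named IL8 on the array, had clone means of -0.86 and -0.94 with one probe, at an unadjusted p of 0.00053 and an adjusted p of 0.40 from limma, and its other probe gave 0.082 and -1.002. The lowest mean was that of LTBP1, which anchors latent TGF-beta in the matrix, at -2.81 in GATA1 5-13 and -0.62 in GATA1 4-14. The highest was that of the chemokine CCL3, at 1.05 and 0.11.

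The probes of granule membrane and dense granule genes that were measured lay mostly below 0. Of 35 probes well above background, which belong to 21 genes, 18 were lower and 1 was higher on all 4 arrays. The shares among all probes measured as well were 16.8% lower and 15.9% higher, and this contrast was not tested. The 18 probes stand for fewer genes, since ABCC4, RAB32 and ITGA2B, among others, are each counted more than once. The medians were -0.08 and -0.10, beside -0.009 and 0 for all probes measured as well. RAB38, a small GTPase of lysosome-related organelles, had clone means of -0.89 and -0.61, with an unadjusted p of 0.0039 and an adjusted p of 0.54 from limma. SLC35D3, a transporter needed for dense granules, was at 1.37 and 0.23. None passed an adjusted p of 0.05.

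The machinery that builds and secretes granules was measured for all 37 genes listed. Its 55 probes above background had medians of -0.06 and 0.02, with 10 lower and 5 higher on all arrays. The shares among all probes measured as well were 16.8% lower and 15.9% higher. The lowest mean was that of a probe of RAB11A, a GTPase of recycling endosomes, at -0.23 and -0.49. The other RAB11A probe, also well above background, gave -0.216 and -0.215. The highest was VAMP7, a SNARE protein named SYBL1 on the array, at 0.61 and 0.08. No probe of this list reached an unadjusted p of 0.005.

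Of the receptors and partners of the granule proteins, 25 probes were well above background, of which 5 were lower and 4 higher on all arrays. Among all probes measured as well, 16.8% were lower and 15.9% higher. THBD, thrombomodulin, which turns thrombin to the activation of protein C and so to the inactivation of factor V, had ratios of 1.15 and 1.34 in GATA1 5-13 and 0.72 and 0.99 in GATA1 4-14, the highest in the list. Its unadjusted p was 0.0030 and its adjusted p 0.52 from limma. GP1BA, the platelet receptor of VWF, was lowest, at -1.77 and -1.59 in GATA1 5-13 and -0.21 and -0.12 in GATA1 4-14. These values rest on 1 probe, as the other GP1BA probe was well above background on no array, with clone means of -0.104 and -0.005. For the measured GP1BA probe, the difference between the clones was not tested, and the mean had an adjusted p of 0.71 from limma.

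**Figure D4:**
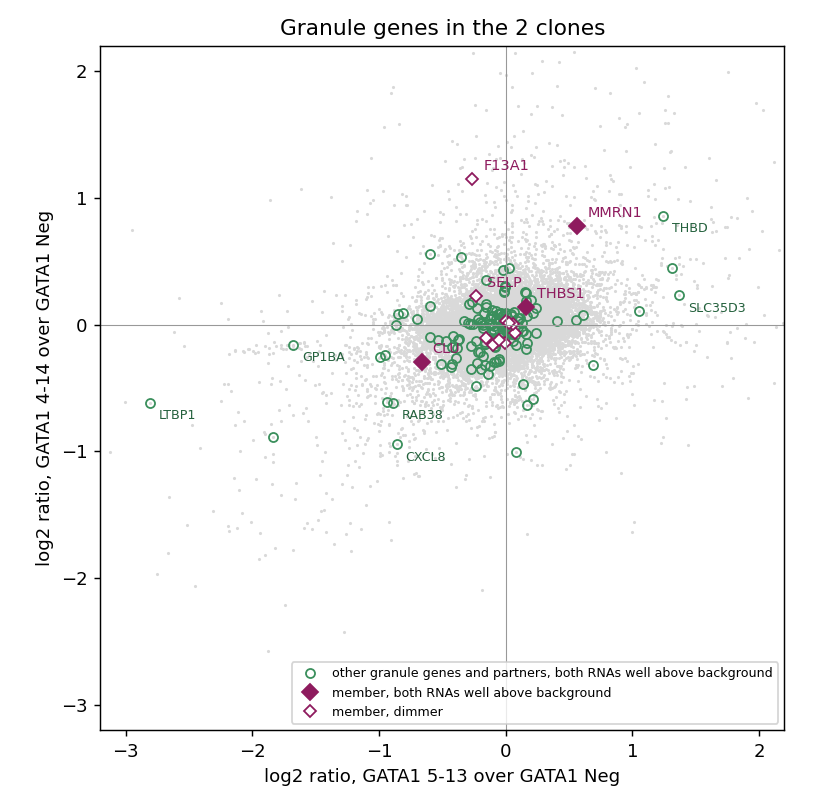
Mean log2 ratio over GATA1 Neg in GATA1 5-13 (horizontal axis) and in GATA1 4-14 (vertical axis), with all 40974 probes in grey (57 lie outside the axes), granule protein probes as diamonds and related genes measured above background as green circles. MMRN1 at 0.56 and 0.78 and CLU at -0.66 and -0.29 lie in the quadrants of equal sign. F13A1 at -0.26 and 1.15, drawn among the dimmer diamonds, does not, and the other dimmer diamonds lie close to the origin.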

How the data were processed

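The authors extracted RNA with TRIzol, amplified and labelled it, and hybridized it to Agilent whole human genome arrays. The 4 arrays were scanned and quantified in Agilent Feature Extraction (version 9.5.3.1), whose files place the probes on hg18. For both channels the authors deposited linear values, the mean intensity of each spot and its median local background, neither corrected nor normalized. The log10 ratio of each spot and its error were deposited by the authors as Feature Extraction made them, and so was a p-value per spot, which was not used here. The value table of the whole series, also deposited, held the same log10 ratios as clone over control (largest difference 4.97e-06). The combination of arrays with Rosetta Resolver was not repeated.

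With limma 3.58.1 (R 4.3.3, data.table version 1.17.8), intensities were corrected by normexp with an offset of 50, normalized by loess within arrays, and averaged over the spots of a probe. Control spots and the 135 to 152 outlier spots per array were left out, and 0 spots were saturated. Every ratio was expressed as clone over GATA1 Neg, and both arrays of a clone were averaged, so that n = 2 clones. limma's moderated two-sided test compared the mean of the 2 clones with 0, and p-values were adjusted after Benjamini and Hochberg across 40974 probes. A probe was called well above background where more than 50% of its spots were. Levels per channel were taken after loess and Aquantile. The procedure was tested on simulated data. With 4 arrays the precision is low, and the p-values measure the spread between 2 clones only.

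The granule proteins, the related lists and the tests were chosen with earlier results of these data known. Every probe of the granule proteins and GATA1 was named. Of the lists of granule genes and partners, probes at an unadjusted p of at most 0.005 were named. The largest rise and fall in each of these lists, among probes well above background on all arrays, were named as well. So were the 3 probes nearest to the measured granule protein probe with the largest mean ratio. Cell type markers, such as LYZ and LUM, were chosen outside this rule. Alternatives covered background correction, normalization, the dim-probe filter, Feature Extraction's ratios, error weights, the 4 arrays each as a value (replicate block fitted or not), and leaving out arrays and clones. Promoter windows are RefSeq's, drawn with Python 3.11.15. Matplotlib 3.10.9 was used for plots.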

Additional observations from a re-analysis of the deposited data

Results flagged for a closer look

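The levels of 2 of the 13 granule protein probes in GATA1 Neg had 1 array apart from the other 3. PF4V1 had a gap to the nearest array of 0.898 of the range over the 4 arrays, past the limit of Dixon's test, with 6.12 on the second GATA1 4-14 array and at most 6.01 on the others. SELP had a gap of 0.902 of the range, with 6.50 on the first GATA1 5-13 array and 6.67 to 6.69 on the others. Both are log2 intensities of probes that were not well above background, and chance alone marks about 1 group in 20.

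The log2 ratios of the 2 clones had opposite signs on every array for F13A1 and SELP, as they did for 15.9% of all probes. The difference of GATA1 5-13 minus GATA1 4-14 was -1.41 for F13A1 and -0.462 for SELP, and neither difference was tested, since a clone is 1 replicate. Neither is a measured size, because SELP was not well above background in any RNA, and F13A1 was so in GATA1 4-14 only, where its level was at least 2.18-fold that of GATA1 Neg.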

How the results depend on the processing

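MMRN1, CLU, THBS1 A_24_P142118 and GATA1 kept their direction in all 16 alternatives, and PF4, VWF A_23_P105562 and F5 A_23_P148768 in all 15 of theirs, though at background signal PF4 ran from -0.589 (Feature Extraction's ratios) to -0.019 (no background correction) and F5 from -0.382 (error weights) to -0.032 (no background correction). Not all alternatives could change a direction. Feature Extraction's ratios and the series-wide values are the same ratios, so they count as 1 alternative. The filter on dim probes and the fits with the 4 arrays as 4 values leave the mean ratio of a probe as it was. CLU ranged from -0.66 to -0.26, with an adjusted p from 3.5e-06 (error weights) to 0.68 (Feature Extraction's ratios), and THBS1 A_24_P142118 from 0.08 to 0.23. Signs changed for PF4V1, PPBP, SELP, F13A1 and THBS1 A_23_P206212, and VWF A_32_P150382 and F5 A_32_P41604 came to 0 with some settings. Without background correction, PF4V1 was -0.005, PPBP -0.003 and SELP 0.008. With Feature Extraction's ratios or the series-wide values, THBS1 A_23_P206212 was -0.001 and SELP 0.026, and with error weights SELP was 0.522. Leaving out 1 array, PF4V1 ran from -0.053 to 0.057, SELP from -0.017 to 0.013, PPBP from -0.040 to 0.106 and THBS1 A_23_P206212 from -0.001 to 0.043. Without clone GATA1 5-13, PF4V1 was -0.067, SELP 0.229 and F13A1 1.147, and without GATA1 4-14 they were 0.071, -0.233 and -0.263. The cause was not tested.

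The number of all probes called at an adjusted p of 0.05 was 0, and 1 with the filter on dim probes or a normexp offset of 10 (chosen after seeing the data), 0 to 1 when 1 array was left out, 1240 with the 4 arrays as 4 values and no replicate block, 269 with the replicate block and 3531 with error weights. At an unadjusted p of at most 0.005 it was 369, and 2209, 1776 and 3629 in the last 3, 563 with the offset of 10. Granule protein probes called at an adjusted p of 0.05 were 0, then 1 with no replicate block (MMRN1) and 3 with error weights. At the unadjusted 0.005 they were 1, then 2 and 3, and 0 without background correction, with Feature Extraction's ratios or with the series-wide values. Of the related lists, 0 probes were called, and 10, 1 and 31 with no replicate block, the replicate block and error weights. At the unadjusted 0.005 there were 3, then 20, 15 and 31, 1 with Feature Extraction's ratios or the series-wide values, and 6 with the offset of 10. These lists hold 78 probes (other cargo), 40 (membrane and dense granule), 57 (machinery) and 44 (receptors and partners), some in more than 1 list. Of all probes, 0.901% reached the unadjusted 0.005 in the main limma fit, and 8.62% were called with error weights. The GATA1 log2 ratio of -0.388 had an adjusted p of 0.61, of 0.049 with no replicate block and of 0.11 with the replicate block, and with error weights it was -0.399 with 0.0026. The adjusted p of MMRN1 was 0.0086 with no replicate block and 0.054 with it.

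The 5 probes whose clone difference exceeded the array spans became 1 with median centring and 2 with the filter on dim probes, and the 10 probes of equal sign became 3, as that filter left few. The array number marks the dye orientation, and same-numbered arrays deviated together (r = 0.77 across probes).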
